A study of Mus spretus with 8 samples.

Results

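Genes that mark Kupffer cells and other leukocytes were followed in livers of male mice fed p,p'-DDE, a persistent breakdown product of the insecticide DDT. The list held 38 gene symbols, and all 38 were found on the array with 75 of its 42957 probes. They are 38 of the 22471 named genes. Each gene was read from 1 probe, the one with the highest mean over the 8 arrays.

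The 8 mice were Mus spretus of the inbred strain SPRET/EiJ. The DDE group (4 mice) ate Harlan feed carrying p,p'-DDE at 450 mg/kg in corn oil over 30 days, beginning at 7 weeks of age. The control group (4 mice) ate Harlan feed with corn oil and no DDE. Total RNA of each liver was labelled with a single dye and read on 1 Agilent microarray per mouse. Whole tissue was measured, so fewer cells of a type and less RNA per cell cannot be told apart. Nothing in the labels says whether the mice of a group shared a cage or litter. The p-values set the difference between the groups against the spread among the 4 samples within each group. In limma that spread is first drawn towards a value shared by all probes.

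Kupffer cells are the macrophages that live in the liver sinusoids, the small blood channels between plates of hepatocytes. They take up microbes, worn-out blood cells and other particles from portal blood, and they depend on the receptor CSF1R. The liver also holds natural killer cells, T and B lymphocytes, monocytes and, in passing blood, neutrophils, each with its own surface receptors and granule proteins.

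Values are log2 signal as the authors normalized it, with an array median of 7.46 to 7.47 and a top of 16. A background level was set for each array from probes of olfactory and vomeronasal receptors, genes not thought to be used in liver, and it lay between 7.55 and 7.81. Stained spots, meaning spots in areas of an array where neighbouring values were shifted together, made up 0.521% to 7.59% of the spots on the DDE arrays and 1.16% to 9.50% on the control arrays. All 9 hepatocyte markers looked up were above background on all 8 arrays. Probes read from different genes differ in how they bind, so no gene's level is set against another's. How well each probe binds Mus spretus transcripts was not tested.

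Of the 38 markers, 17 were above background on all 8 arrays, 7 on 4 to 7 arrays, 7 on 1 to 3 arrays and 7 on none. Of all 22471 genes, 8542 were above background on all arrays and 25.3% on none. The 17 markers included Kupffer cell, macrophage, complement C1q, neutrophil, T cell and natural killer cell genes. The 7 markers never above background were Cd14, a co-receptor for bacterial lipopolysaccharide, Ccr2, the chemokine receptor of recruited monocytes, and Itgax, the integrin subunit CD11c of dendritic cells, with Cd79a and Ms4a1 of B cells and Gzmb and Klrb1c of natural killer cells. No difference between the groups is read from them, though they are included in counts and medians over all 38 markers.

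**Figure D1:**
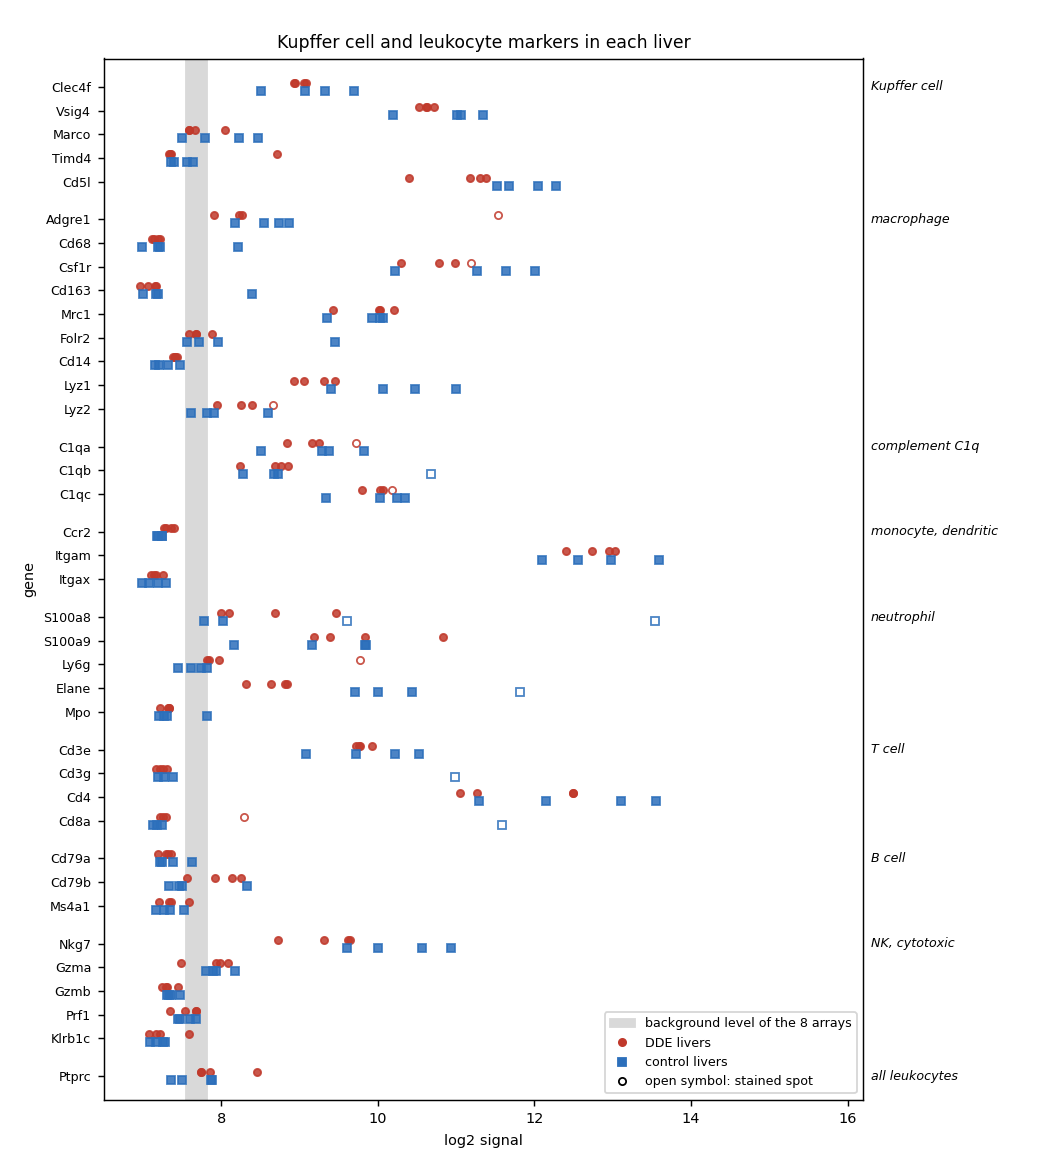
Log2 signal (horizontal axis) of the 38 markers (vertical axis, by cell class) in the 4 DDE livers (circles) and the 4 control livers (squares), with open symbols for stained spots and a grey band for the background levels of 7.55 to 7.81. Elane and Cd5l are the markers above background whose DDE values all lie below the control values.

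In the comparison of DDE with control livers, 0 of the 38 markers and 0 of their 75 probes passed an adjusted p of 0.05 in limma, and the smallest adjusted p was 0.0814, for Elane. Over all 42957 probes 3.00% were called. Counted by gene, 2.58% of all genes were called higher and 0.774% lower in DDE livers. At an unadjusted p under 0.05, 0 markers were higher and 4 were lower (Cd5l, Lyz1, Elane and Nkg7), against 11.4% of all genes higher and 4.57% lower. Groups that did not overlap were seen with lower DDE values in 2 markers (Cd5l and Elane), against 4.06% of genes, and with higher DDE values in 1 marker (Ccr2, below background), against 8.48% of genes. The median difference of the 38 markers was -0.08 on the log2 scale, and 23 of them had the lower mean in DDE livers. Over all genes the median was 0.015 and 47.4% had the lower mean. For the 24 markers above background on 4 or more arrays the median was -0.12 and 66.7% had the lower mean. For all genes above background on 4 or more arrays these values were 0.10 and 41.6%. With 4 arrays a group the 95% intervals of the 24 markers above background on 4 or more arrays reached from 0.35 to 2.94 on either side of the difference. For 12 of these 24 the interval lay within 1 log2 unit of 0, and for the other 12 it reached beyond 1 log2 unit in at least 1 direction.

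**Figure D2:**
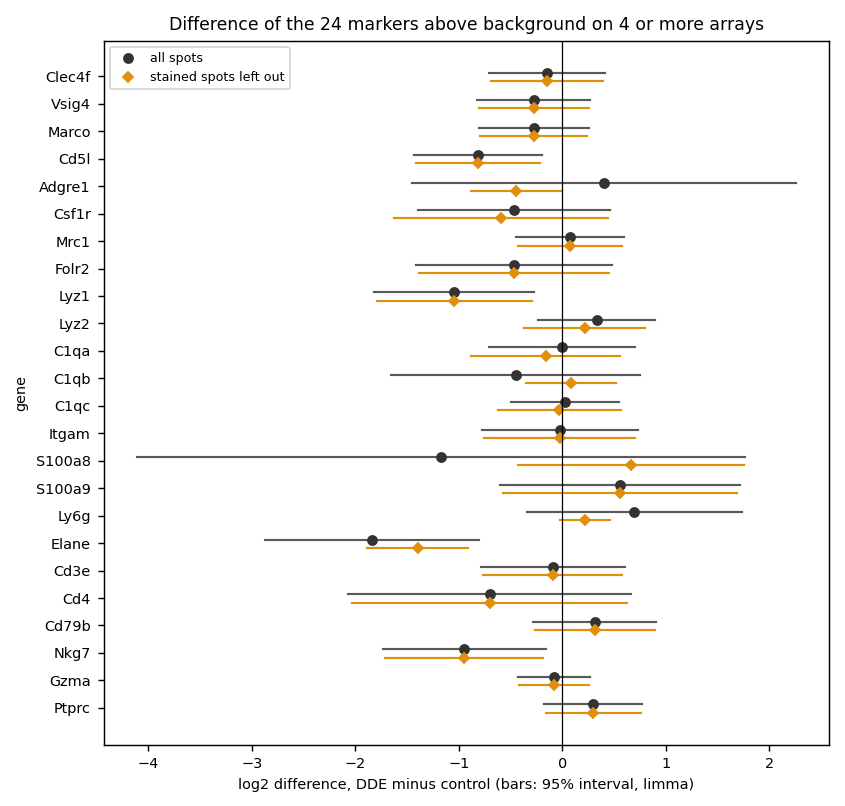
Log2 difference, DDE minus control (horizontal axis), with its 95% interval from limma, for the 24 markers above background on 4 or more arrays (vertical axis), over all spots (circles) and with stained spots left out (diamonds). Most intervals cross 0, those of Cd5l, Lyz1, Elane and Nkg7 lie below it either way, and that of S100a8 spans from -4.11 to 1.76 with all spots.

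Among the Kupffer cell markers, Cd5l is a scavenger receptor family protein that tissue macrophages secrete. Its log2 signal was 11.18, 11.30, 11.38 and 10.40 in DDE livers 1 to 4, and 12.28, 12.04, 11.67 and 11.52 in control livers 1 to 4. Every DDE liver was below every control liver, and none of the 8 spots was stained. The means were 11.07 ± 0.45 in DDE and 11.88 ± 0.35 in control livers (SD, n = 4 each), and the difference of -0.81 (95% interval -1.43 to -0.19) did not pass in limma (adjusted p = 0.183). It was negative under all 18 other ways of processing, with adjusted p between 0.0857 and 0.337. Since the groups did not overlap, leaving out or weighting arrays could not have changed the sign.

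Clec4f, a C-type lectin found on mouse Kupffer cells and few other cells, was 8.94, 9.08, 9.05 and 8.93 in DDE livers, and 9.70, 9.07, 9.33 and 8.50 in control livers. The DDE livers lay close together inside the range of the controls, of which liver 1 was the highest and liver 4 the lowest of all 8. The difference was -0.15 (95% interval -0.71 to 0.41, limma adjusted p = 0.764). Vsig4, a complement receptor of tissue-resident macrophages, was 10.63, 10.62, 10.72 and 10.52 in DDE livers, and 11.34, 11.01, 11.06 and 10.19 in control livers. Of the controls, 3 were above every DDE liver and control 4 was below every one. The difference was -0.28 (limma adjusted p = 0.633). Over the 18 alternatives it ran from -0.51 to -0.13, with adjusted p from 0.0583 to 0.779. The largest difference and the smallest adjusted p were those without control 4.

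Marco, a scavenger receptor that binds bacteria, was 8.04, 7.59, 7.59 and 7.66 in DDE livers, and 8.47, 7.50, 8.23 and 7.79 in control livers. It was above background in 2 DDE and 3 control livers, and the groups overlapped (difference -0.28, limma adjusted p = 0.633). Timd4, a phosphatidylserine receptor of long-lived Kupffer cells, was above background on 1 array, DDE 4, at 8.71. Its other 7 values lay between 7.33 and 7.64, so the gene was near background in the remaining livers of both groups.

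Csf1r, the receptor on which macrophages depend for survival, was 10.99, 10.78, 11.19 and 10.30 in DDE livers, and 12.01, 11.64, 11.26 and 10.22 in control livers. Controls 1 to 3 were above every DDE liver and control 4 was below every one, and DDE 3 stands on a stained spot. The difference was -0.47 (95% interval -1.40 to 0.46, limma adjusted p = 0.633). The gene's other probes gave -0.50 and 0.09. The second of its 3 probes also had controls 1 to 3 above and control 4 below every DDE liver, with 9.07, 9.03, 8.86 and 8.85 in DDE livers and 9.85, 9.68, 9.50 and 8.77 in control livers.

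Adgre1 encodes F4/80, the classical surface marker of mouse macrophages. Its signal was 8.23, 11.53, 8.26 and 7.91 in DDE livers, and 8.86, 8.73, 8.55 and 8.17 in control livers. The value in DDE liver 2 stands on a stained spot, and the remaining DDE livers were below controls 1 to 3 and overlapped with control 4. With every spot the difference was 0.41 (95% interval -1.45 to 2.26), and with the stained spot left out it was -0.44 (95% interval -0.88 to -0.01, limma adjusted p = 0.288). The second probe of Adgre1, with no stained spot, gave -0.10.

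Lyz1 and Lyz2 encode the mouse lysozymes, enzymes that cut bacterial cell walls; Lyz2 is the form of macrophages and neutrophils and Lyz1 that of Paneth cells of the gut. The sequences are closely alike and a probe for one may bind the other, so the assignment of signal to either gene is uncertain. Lyz1 was 9.31, 8.93, 9.45 and 9.06 in DDE livers, and 11.00, 10.06, 10.47 and 9.40 in control livers. The groups met where DDE 3 was just above control 4. The means were 9.19 ± 0.24 in DDE and 10.23 ± 0.68 in control livers (SD, n = 4 each), and the difference of -1.05 (95% interval -1.82 to -0.27) did not pass (limma adjusted p = 0.169). Without control 4 it was -1.32 with an adjusted p of 0.0497, and over the 18 alternatives the adjusted p lay between 0.0497 and 0.359. Lyz2 was 8.25, 8.66, 8.39 and 7.95 in DDE livers, and 8.59, 7.82, 7.90 and 7.61 in control livers. It overlapped between the groups, with a difference of 0.33 (adjusted p = 0.61) and DDE 2 on a stained spot. Whether the differences of the lysozyme genes themselves differ was not tested.

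Mrc1, the mannose receptor CD206 of macrophages and of sinusoidal endothelial cells, was 10.01, 10.21, 10.02 and 9.43 in DDE livers, and 9.93, 10.03, 10.06 and 9.35 in control livers. In both groups liver 4 was the lowest and the other values lay close together. The difference was 0.08 with a 95% interval of -0.44 to 0.59 (limma adjusted p = 0.879). Folr2, a folate receptor of resident macrophages, was 7.67, 7.67, 7.88 and 7.58 in DDE livers, and 7.96, 9.45, 7.71 and 7.56 in control livers. Its mean difference of -0.47 (adjusted p = 0.633) turned on control 2, and without that liver it was -0.04. Cd68, a lysosomal glycoprotein of macrophages, and Cd163, the scavenger receptor for haemoglobin, were each above background on 1 array, at 8.21 in control 1 for Cd68 and 8.39 in control 2 for Cd163.

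C1qa, C1qb and C1qc encode the chains of C1q, the starting protein of the classical complement pathway, which Kupffer cells make in the liver. All 3 genes were above background in every liver. C1qa was 9.16, 9.25, 8.84 and 9.72 in DDE livers, and 9.82, 9.28, 9.37 and 8.51 in control livers. C1qb was 8.76, 8.85, 8.68 and 8.24 in DDE livers, and 10.68, 8.67, 8.72 and 8.27 in control livers. C1qc was 10.06, 10.02, 9.80 and 10.18 in DDE livers, and 10.35, 10.03, 10.24 and 9.34 in control livers. Control 1 was the highest and control 4 the lowest of the control livers for each of them, and the groups overlapped for all. The differences were 0.00 for C1qa, -0.45 for C1qb and 0.03 for C1qc, with limma adjusted p of 0.999, 0.669 and 0.963. C1qb rests on a stained spot in control 1, without which its difference was 0.08. The values of C1qa and C1qc in DDE 4 also stand on stained spots, and without that spot C1qc differed by -0.03.

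C1qc is carried by 10 probes, all above background, and the difference varied with the probe read. Their differences ran from -0.60 to 0.03 with a median of -0.27, and 9 of the 10 were negative. The probe used above is the one with a positive difference. None passed in limma, and the smallest adjusted p was 0.0938. The median over the 10 probes was 9.79, 9.64, 9.47 and 9.44 in DDE livers, and 10.35, 9.92, 10.18 and 9.17 in control livers. By these medians 3 control livers were above every DDE liver and control 4 was below every one. Probe sequences were not used here, and repeated probes of a gene may be copies of 1 sequence. The 10 probes are repeat readings of the same livers, and whether they differ by sequence or by spot was not tested.

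**Figure D3:**
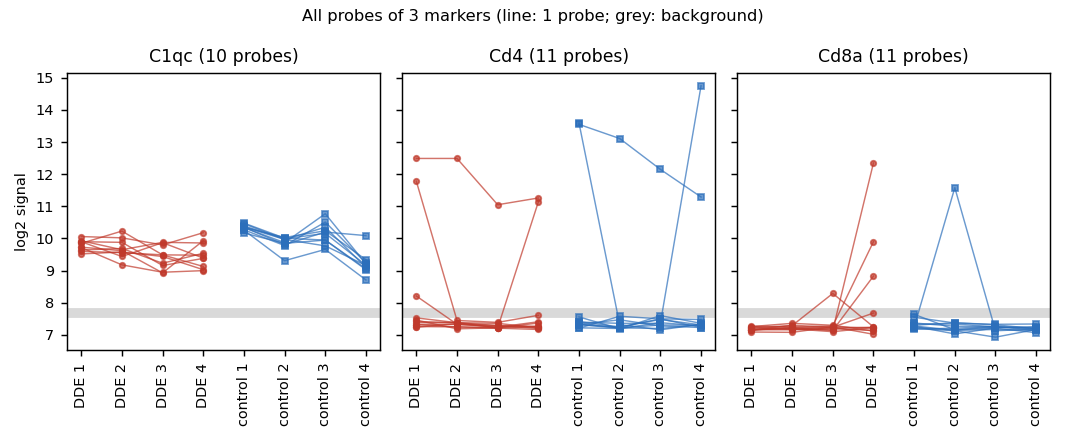
Log2 signal (vertical axis) of every probe of C1qc, Cd4 and Cd8a in DDE livers 1 to 4 (circles) and control livers 1 to 4 (squares), where a line joins the values of 1 probe within a group and the grey band is the background level. The 10 probes of C1qc keep close together, while 1 of 11 probes of Cd4 and 0 of 11 of Cd8a were above background on 4 or more arrays.

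Of the monocyte and dendritic cell markers, Itgam, the integrin subunit CD11b of myeloid cells, was 13.03, 12.95, 12.40 and 12.73 in DDE livers, and 12.98, 13.59, 12.56 and 12.09 in control livers. The DDE livers lay within the control range, and the difference was -0.03 (95% interval -0.78 to 0.73, limma adjusted p = 0.972). Only 1 of its 3 probes was above background on 4 or more arrays, so the reading of Itgam from that probe is uncertain. Ccr2 was 7.39, 7.27, 7.35 and 7.29 in DDE livers, and 7.24, 7.19, 7.24 and 7.18 in control livers. These values did not overlap, but all 8 were below background, and the comparison did not pass (adjusted p = 0.428).

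Among the neutrophil markers, Elane encodes neutrophil elastase, a protease that neutrophil precursors store in their primary granules. It was 8.84, 8.81, 8.63 and 8.31 in DDE livers, and 10.43, 9.71, 10.00 and 11.81 in control livers. Every DDE liver was below every control liver, and the highest value, in control 4, stands on a stained spot. The means were 8.65 ± 0.24 in DDE and 10.49 ± 0.93 in control livers (SD, n = 4 each), a difference of -1.84 (SE 0.44, 95% interval -2.87 to -0.81) with a limma adjusted p of 0.0814. With stained spots left out the control mean was 10.05 ± 0.36 (SD, n = 3), and the difference of -1.40 passed (adjusted p = 0.0203). Elane passed in 5 of 18 alternatives. Besides that one, these were limiting the test to probes above background (adjusted p = 0.0285), array weights (0.0385), leaving out both arrays numbered 4 (0.0372) and leaving out control 4 (0.0300). Leaving out stained spots, control 4 or both arrays 4 each removes the control 4 value, so these are not separate results. With array weights the difference was -1.49, and with the limit to probes above background it stayed at -1.84. The difference was negative in all 18, with adjusted p from 0.0203 to 0.202. As for Cd5l, leaving out or weighting arrays could not have changed the sign of groups that do not overlap. Elane has 1 named probe, so no second reading exists here.

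Mpo, myeloperoxidase of the same primary granules, was above background on 1 array, control 2, at 7.82. Its remaining values lay between 7.20 and 7.33 in both groups (limma adjusted p = 0.73). Prtn3, another primary granule protease, was looked at after the values of Elane were seen, and was above background on 1 array, control 3, at 8.12. Camp and Ltf, secondary granule proteins chosen in the same way, were above background on none. The difference seen for Elane therefore has no counterpart that could be measured in these companion genes. Elane was above background in every liver while these were not, and whether its single probe reads Elane RNA was not tested. The reading of Elane is therefore uncertain. Of the other neutrophil markers, S100a9 (difference 0.56) and Ly6g (0.70, or 0.22 without stained spots) had the higher mean in DDE livers. S100a8 had the lower mean (-1.17) with all spots and the higher (0.66) without stained spots. None of these passed.

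S100a8 and S100a9 encode the chains of calprotectin, an abundant calcium-binding protein of neutrophil cytoplasm. S100a9 was 9.83, 9.18, 10.83 and 9.39 in DDE livers, and 9.83, 9.16, 9.85 and 8.16 in control livers. The groups overlapped, and the difference was 0.56 (95% interval -0.60 to 1.72, limma adjusted p = 0.633). S100a8 was 8.10, 8.69, 9.46 and 8.0 in DDE livers, and 8.02, 7.78, 13.54 and 9.61 in control livers. Its highest values, in controls 3 and 4, stand on stained spots. The difference of -1.17 (adjusted p = 0.653) turned to 0.66 (adjusted p = 0.561) without stained spots, which leaves 2 control livers. DDE 3 was the highest DDE liver for both genes. Ly6g, the surface antigen used to identify mouse neutrophils, was 7.97, 7.84, 9.77 and 7.81 in DDE livers, and 7.74, 7.81, 7.61 and 7.45 in control livers. The value in DDE 3 stands on a stained spot, and the difference of 0.70 (adjusted p = 0.56) was 0.22 without it.

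Of the T cell markers, Cd3e, a signalling chain of the T cell receptor complex, was 9.93, 9.72, 9.77 and 9.76 in DDE livers, and 10.53, 9.72, 10.22 and 9.08 in control livers. The DDE values lay inside the control range, whose ends were again control 1 and control 4 (difference -0.09, 95% interval -0.79 to 0.60, limma adjusted p = 0.889). Cd4, the co-receptor of helper T cells, was 12.49, 12.49, 11.05 and 11.26 in DDE livers, and 13.55, 13.11, 12.15 and 11.29 in control livers. The groups overlapped (difference -0.70, adjusted p = 0.633). Of its 11 probes this was the single one above background on 4 or more arrays, and 4 others were high on 1 array alone, by 3.67 to 7.35 above the next array. The reading of Cd4 is therefore uncertain as well.

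Cd8a, the co-receptor of cytotoxic T cells, had 11 probes, and none was above background on 4 or more arrays. Its probe with the highest mean was 11.58 in control 2 and 8.29 in DDE 3, both on stained spots, and its other values lay between 7.13 and 7.29. Cd3g, another chain of the receptor complex, was 10.98 on a stained spot in control 2 and between 7.17 and 7.38 in the other livers. With stained spots left out the values of Cd3g and of this probe of Cd8a were all below background. Other probes of Cd8a reached 9.90 and 8.83 on unstained spots in DDE 4 alone. Neither gene gave a usable comparison. Over the 38 markers, 10 were high on 1 array alone by more than 1 log2 unit (26.3%), 7 of them on a stained spot. The same was true of 18.2% of all genes and of 20.9% of olfactory and vomeronasal probes.

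Nkg7, a granule membrane protein of natural killer and cytotoxic T cells, was 9.31, 9.62, 9.64 and 8.72 in DDE livers, and 10.93, 10.00, 10.56 and 9.60 in control livers. Controls 1 to 3 were above every DDE liver, and control 4 was level with the upper DDE livers. The means were 9.32 ± 0.43 in DDE and 10.27 ± 0.59 in control livers (SD, n = 4 each). The difference of -0.95 (95% interval -1.74 to -0.16) did not pass (limma adjusted p = 0.226). A second probe gave -1.83, but its high values, 12.46 in control 3 and 9.87 in control 4, were both on stained spots. Gzma, a granule protease of the same cells, was 7.98, 7.93, 8.08 and 7.48 in DDE livers, and 8.17, 7.93, 7.80 and 7.89 in control livers. Its values overlapped, and the difference of -0.08 had a 95% interval of -0.43 to 0.27 (adjusted p = 0.802). Prf1, the pore-forming protein perforin, was above background in 2 DDE livers and in 0 control livers, with values from 7.34 to 7.68 over all 8.

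Cd79b, a signalling chain of the B cell receptor, was 8.25, 8.14, 7.56 and 7.92 in DDE livers, and 8.33, 7.46, 7.50 and 7.33 in control livers. It was above background in 3 DDE livers and 1 control liver, and the groups overlapped (difference 0.31, limma adjusted p = 0.633). Its partner Cd79a was not above background in any liver, and neither was Ms4a1, which encodes the B cell surface protein CD20. Ptprc encodes CD45, the phosphatase carried by all leukocytes. It was 7.86, 7.74, 7.74 and 8.45 in DDE livers, and 7.88, 7.50, 7.87 and 7.35 in control livers. All 4 DDE and 2 of the control livers were above background (difference 0.30, adjusted p = 0.588).

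The livers of a group also differed among themselves. The mean log2 signal of the Kupffer cell markers above background (Clec4f, Vsig4, Marco and Cd5l) was 9.70, 9.65, 9.69 and 9.38 in DDE livers, and 10.45, 9.91, 10.07 and 9.50 in control livers. Controls 1 to 3 were above every DDE liver, and control 4 was above DDE 4 and below the rest. Over these 4 genes with the macrophage and C1q markers above background, 13 genes in all, the mean was 9.33, 9.58, 9.33 and 9.07 in DDE livers, and 10.08, 9.64, 9.58 and 8.96 in control livers. The group means of these 13 genes were 9.32 ± 0.21 in DDE and 9.56 ± 0.46 in control livers (SD, n = 4 each), closer together than the SD of the control livers. The mean in DDE 2 includes the stained Adgre1 spot. With stained spots left out, the mean deviation of the 13 genes from each gene's median was 0.00, -0.06, -0.01 and -0.36 in DDE livers, and 0.65, 0.32, 0.26 and -0.37 in control livers. Controls 1 to 3 were then above every DDE liver and control 4 was level with DDE 4. The group means of these deviations were -0.11 ± 0.17 in DDE and 0.21 ± 0.42 in control livers (SD, n = 4 each). In a further list of Kupffer cell identity genes, 10 above background averaged 9.46, 9.42, 9.40 and 9.34 in DDE livers. In control livers their mean was 9.47, 9.26, 9.32 and 8.98, stained spots included. The group means were 9.41 ± 0.05 in DDE and 9.26 ± 0.21 in control livers (SD, n = 4 each), the opposite order to the 13 genes.

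**Figure D4:**
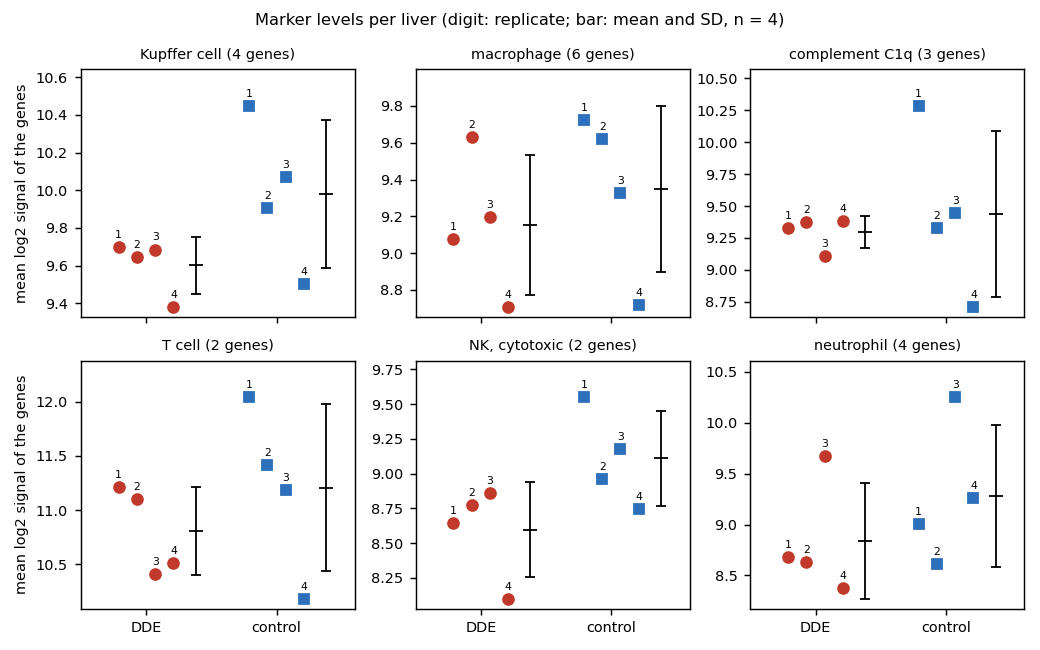
Mean log2 signal (vertical axis, a scale for each panel) of the markers above background in 6 cell classes, for DDE livers (circles) and control livers (squares), where the digit is the replicate, the bars are mean and SD (n = 4), and stained spots are included (Adgre1 in DDE 2 for the macrophage class). Control 1 is the highest control liver in every class but the neutrophil markers, and control 4 the lowest in every class but those.

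The spread within the control group followed the same livers for many markers. Of the 17 markers above background on all arrays, control 4 was the lowest control for 15 (88.2%) and control 1 the highest for 12 (70.6%). Over the 8542 genes above background on all arrays, control 4 was the lowest control for 68.9% and control 1 the highest for 38.5%. Among the 10 Kupffer, macrophage and C1q markers in that set, control 4 was the lowest control for 10 and control 1 the highest for 9. Control 1 was above every DDE liver for 12 of the 17 markers (70.6%), against 25.6% of genes. The range over the controls was wider than that over the DDE livers for 14 of the 17 (82.4%), against 55.6% of genes. Control 4 and DDE 4 are also the arrays with the most stained spots of their groups (9.50% and 7.59%), and control 1 had 1.16%. The part of array quality in this order was not tested.

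Further leukocyte genes and signals of the Kupffer cell niche were read from 8 lists of 89 measured genes, and limma called 0 of them. An unadjusted p under 0.05 was reached by 4 genes in each direction, beside 11.4% of all genes higher and 4.57% lower. The median difference of the 89 genes was -0.005. In the list of Kupffer cell identity genes 0 of 12 were called, and the smallest p belonged to Msr1, a scavenger receptor (difference 0.47, adjusted p = 0.259). Msr1 was 8.51, 8.55, 8.59 and 9.07 in DDE livers, and 8.42, 8.32, 8.28 and 7.83 in control livers. The DDE livers were all above the control livers, opposite in sign to Cd5l.

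Of 12 genes of phagocyte signalling 0 were called, and Ctss, a lysosomal protease of antigen-presenting cells, had the smallest p (difference -0.73, limma adjusted p = 0.249, control 3 on a stained spot). Of 8 genes of recruited monocytes 0 were called, led by Cx3cr1, which was below background in all livers. Of 7 further granulocyte genes 0 were called, led by Retnlg, a secreted protein of mouse neutrophils (difference 0.48, adjusted p = 0.322). Retnlg was above background in 4 DDE and 2 control livers. Its groups did not overlap, with the lowest DDE value (8.05) just above the highest control value (8.04). Among 14 further T and natural killer cell genes 0 were called, led by Cd8b1 (adjusted p = 0.40), and among 6 further B and plasma cell genes 0, led by Blk, which was high in control 4 on a stained spot.

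Of 11 dendritic cell and antigen presentation genes 0 were called, led by Zbtb46, a transcription factor of dendritic cells (difference -0.32, limma adjusted p = 0.298). Of 19 niche signals 0 were called, led by Cxcl12, a chemokine that stromal and endothelial cells make and that holds leukocytes in place. Cxcl12 was 13.12, 13.21, 13.63 and 13.29 in DDE livers, and 13.74, 13.93, 13.98 and 13.67 in control livers. Every DDE liver was below every control liver, and the difference of -0.52 (95% interval -0.82 to -0.21) had an adjusted p of 0.095.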

How the data were processed

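Expression was read from the authors' deposited value table, whose log2 values (42957 probes, 8 arrays) were used unchanged. The RNA carried Cy3, per the labels, with background correction and normalization not given in the sources used here. A supplied annotation names 1 gene for 33009 probes and none for 9948.

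Every probe was tested with limma 3.58.1 (lmFit, eBayes; R 4.3.3), DDE minus control, two-sided, without covariates, and adjusted by Benjamini-Hochberg over all probes at 0.05; intervals are 95%. Background per array was the 0.95 quantile of the 1634 olfactory and vomeronasal probes, leaving out those on stained spots of that array. Spots were called stained if deviations in their surrounding 7 by 5 spots had a median beyond 0.3 either way. The procedure was tested on simulated data.

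Members, the 13 other lists (130 of 137 genes measured, 7 not analysed here), rules and alternatives were chosen with earlier results of these data known. Every member is accounted for; other lists give genes past the threshold, otherwise that with the smallest p. Alternatives were 2 normalizations, a background filter, trended variance, array weights, a replicate block, stained spots or both arrays 4 left out, each array left out, and the mean of a gene's probes; the probe with the highest median was added after seeing the data. The number of arrays limits precision.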

Additional observations from a re-analysis of the deposited data

Results flagged for a closer look

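A single liver stood apart from the other 3 of its group by Dixon's test of a gap against the group's range for 11 of 76 groups tested over the 38 markers, and 10 of the 11 were high values. That is 14.5% of the groups, beside 14.9% over all genes by the same test, so the share is near that of the whole array. Chance alone sets apart a liver in about 0.05 of groups. Stained spots carried 5 of them: Adgre1 at 11.53 in DDE 2 (others 7.91 to 8.26), Ly6g at 9.77 in DDE 3 (others 7.81 to 7.97), Cd3g at 10.98 in control 2 (others 7.19 to 7.38), and Cd8a at 8.29 in DDE 3 (others 7.22 to 7.29) and at 11.58 in control 2 (others 7.13 to 7.24).

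The other 6 were on spots that were not stained. Among macrophage genes, Marco was 8.04 in DDE 1 (others 7.59 to 7.66), Timd4 was 8.71 in DDE 4 (others 7.33 to 7.35) and Cd163 was 8.39 in control 2 (others 7.0 to 7.19). Among the rest, Ptprc was 8.45 in DDE 4 (others 7.74 to 7.86), Cd79b was 8.33 in control 1 (others 7.33 to 7.50), and Mpo was 7.22 in DDE 4 (others 7.32 to 7.33), where the 4 DDE values of Mpo were below background. Their causes were not tested.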

How the results depend on the processing

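The count of 0 called markers held under quantile normalization, 75th percentile centring, intensity trend with robust variance, the mean of probes and the highest-median probe. It was 1 under the filter to probes above background, with array weights, with stained spots left out and with both arrays 4 left out (Elane each time), and 0 to 2 when 1 array was left out (2 without control 4: Elane and Lyz1). Of all probes, 1289 were called, and 2018 under the background filter, 511 with intensity trend and robust variance, 2140 with array weights, and 332 to 1596 when 1 array was left out. Same-numbered arrays had deviations correlated at 0.348, 0.242, 0.209 and -0.119 over 9423 probes, and the highest value between different numbers was 0.267. The share of stained spots rose with the number in both groups. These values do not settle whether the numbers pair the arrays or livers. With a replicate block 9 probes and 0 markers were called. For the 19 markers whose changes were followed, 312 of 338 alternative values kept direction and call, 6 became called, 0 lost a call and 20 changed sign, in 7 genes, none of them called. C1qc was -0.11 with array weights, -0.03 without stained spots, -0.25 without both arrays 4 and -0.30 as the mean of its probes. Without stained spots C1qb was 0.0792, S100a8 0.66 and Cd8a 0.07. Gzma was 0.03 without both arrays 4, and as the mean of probes Itgam was 0.0833 and Cd8a 0.12. Leaving out 1 array gave -0.19 to 0.14 for C1qc, -0.72 to 0.0792 for C1qb, -1.83 to 0.0925 for S100a8, -1.15 to 0.33 for Cd8a, -0.15 to 0.0492 for Gzma, -0.27 to 0.23 for Itgam and -0.12 to 0.01 for Cd79a. The causes were not tested. Signal near background and 4 arrays a group limit what can be read.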

Other observations

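Markers of the other liver cells were read from 5 lists of 41 measured genes. Of 10 stellate cell genes limma called 1, Reln, the secreted glycoprotein reelin, which was 7.64, 7.64, 7.58 and 7.60 in DDE livers and 7.32, 7.21, 7.09 and 7.32 in control livers (adjusted p = 0.0391). The DDE values were all above the control values, but Reln was above background in 2 DDE livers and in 0 control livers, so no size is given. In that list 4 genes were higher and 2 lower by an unadjusted p under 0.05, beside 11.4% and 4.57% of all genes. Of 10 sinusoidal endothelial genes 0 were called, while an unadjusted p under 0.05 was reached by 2, both higher. They were led by Gata4, a transcription factor of these cells, at 9.48, 9.45, 9.71 and 8.80 in DDE livers and 8.77, 8.85, 8.11 and 8.31 in control livers (difference 0.85, limma adjusted p = 0.136), where the value in DDE 3 stands on a stained spot. Of 7 erythroid and platelet genes 0 were called, led by Alas2, the first enzyme of haem synthesis in red cell precursors (difference 0.49, adjusted p = 0.163, control 4 on a stained spot). Of 9 hepatocyte genes 0 were called, led by Fga, a fibrinogen chain (difference -0.28, adjusted p = 0.625, DDE 3 on a stained spot). The other 8 hepatocyte genes averaged close to the top of the scale in both groups, where a difference could hardly be seen. Of 5 bile duct genes 0 were called, led by Krt19, a keratin of bile duct cells, at 12.12 in control 1 and 8.80 on a stained spot in control 3 (difference -1.47, adjusted p = 0.541).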
